A study of Mus musculus with 22 samples.

Results

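The genes described here encode the cyclins of the classes A to L, the numbered cyclin-dependent kinases (CDKs), the Cdkn proteins, the E2F factors, the Aurora and Polo-like kinases, and the proliferation marker Ki-67. They were picked by a rule on the gene symbol and numbered 65 of the 17931 gene symbols in the RNA-seq table of whole testes. All 65 had enough counts to be tested. The 6 libraries came from males 7 months old, 3 WT and 3 MLX KO, which were age-matched littermates whose WT members were verified fertile breeders. The MLX KO animals carried a constitutive, whole-body homozygous deletion of the *Mlx* exons that encode the region for dimerization and DNA binding, made by targeting in 129S4 embryonic stem cells, so the deletion was present in every cell type of the testis. Each library is RNA of whole testes from an untreated animal, and the ChIP-Seq part of the series was not used here.

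Cyclins bind and activate CDKs, whose activity drives cells from G1 through DNA replication and into division. D-type cyclins with CDK4 or CDK6 act on the retinoblastoma protein and so release E2F factors, A- and E-type cyclins with CDK2 act around replication, B-type cyclins with CDK1 bring about M phase, and the CDKN1 and CDKN2 proteins hold these kinases back. In the testis, spermatogonia divide by mitosis and spermatocytes by meiosis, spermatids do not divide, and adult Sertoli cells are out of the cycle. Some members are known for germ cell use, such as *Ccna1* and *Cdk2* in spermatocytes and *Aurkc* in meiosis.

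*Mlx* itself had between 96 and 128 counts in WT and between 94 and 109 in KO libraries, a log2 fold change (LFC) of -0.18 for KO against WT (SE 0.14, edgeR adjusted p = 0.326), and since the count is given per gene and exons on both sides of the deleted ones were left in place, it does not check the genotype labels. Libraries held from 16674678 to 19742726 counts, of which the 65 genes took 0.356% to 0.366%. Values are given as CPM, counts scaled to a common library total, with TMM, edgeR's factor for library composition, and the threshold was a Benjamini-Hochberg adjusted p of 0.05 over the 14640 genes tested with edgeR's quasi-likelihood test. A positive LFC means a higher level in libraries with the KO label, and "pairs" are the same-numbered littermates.

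Markers of several cell types differed between the groups, which touches every result that follows. The summed level of 10 elongating spermatid markers lay between 22061 and 23069 CPM in WT and between 13045 and 15933 CPM in KO testes, and all 10 fell (median LFC -0.54). Of 10 round spermatid markers 9 fell (median -0.26), and of 10 spermatocyte markers 7 fell (median -0.16). Of 9 spermatogonial markers tested, 2 rose and 1 fell. All 10 Sertoli cell markers rose (summed level 916 to 963 CPM in WT and 1420 to 1728 in KO), as did all 8 Leydig cell markers (865 to 885 CPM in WT and 1859 to 2446 in KO). Macrophage markers rose in 8 of 9 cases, and the sum of these 8 was 76.7 to 82.6 CPM in WT and 162 to 169 CPM in KO. The remaining one, *Aif1*, held most of the list's counts and fell (366 to 383 CPM in WT and 283 to 324 in KO), so that the sum of all 9 overlapped, at 447 to 465 CPM in WT and 452 to 486 in KO. Of 7 endothelial markers 2 rose (summed level 36.5 to 45.6 CPM in WT and 52.6 to 59.1 in KO). Of 6 peritubular myoid markers 4 rose and 1 fell (310.0 to 369 CPM in WT and 309 to 325 in KO). The 1 that fell, *Actg2*, held most of that list's counts (mean 267 CPM in WT and 204 in KO). Over all these lists 29 markers were called lower, and 17 when libraries were scaled by their size alone. Markers called higher numbered 34, and 38 under that scaling. No marker of any list was at 0 in a library. In whole testes, fewer cells of a type and less RNA per cell cannot be told apart, and the part of these shifts in the results below was not tested.

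Of the 65 genes, 28 (43.1%) passed the threshold, against 45.4% of all genes tested. The 11 that rose make 16.9% of the 65, where 24.8% of all genes rose, and the 17 that fell make 26.2%, where 20.6% of all genes fell. WT and KO values did not overlap for 31 of the 65 (47.7%), against 56.2% of all genes. The share called was thus near that of all genes, and the median LFC was -0.02, against 0.03 for all genes. The 11 genes that rose were *Ccnd2*, *Ccng1*, *Ccng2*, *Cdk4*, *Cdk5*, *Cdk12*, *Cdk15*, *E2f3*, *E2f5*, *Plk2* and *Plk3*. The 17 that fell were *Ccna1*, *Ccnb2*, *Ccni*, *Ccnk*, *Cdk2*, *Cdk16*, *Cdk20*, *Cdkn1c*, *Cdkn2c*, *Cdkn2d*, *Cdkn2aip*, *Cdkn3*, *E2f8*, *Aurka*, *Aurkc*, *Plk1* and *Plk4*. Every gene that rose did so in all 3 pairs, and every gene that fell did so in all 3 pairs. This comes from the same values as the calls and is no separate support for them. Of the 37 genes not past the threshold, 12 also kept the same direction in all 3 pairs.

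The falls were small. Among the 17 genes that fell, the LFC lay between -0.45 and -0.16, and none reached 0.5 in size, while 5 of the 11 that rose did. The median size was 0.22 for the falls and 0.42 for the rises. Falls were also smaller than rises over all genes, with a median LFC of -0.27 for genes that fell and 0.65 for genes that rose. Most of the falls depended on how the libraries were scaled. TMM factors were 0.943 to 0.961 in WT and 1.02 to 1.07 in KO libraries, and scaling by library size alone moved the median LFC of all genes up by 0.14. Over all genes, calls then split into 5343 higher and 1268 lower (80.8% of calls higher), where the TMM fit gave 3634 higher and 3015 lower (54.7% higher). Under that scaling 24 of the 65 genes were higher and 2, *Ccnk* and *Cdkn2d*, were lower (26 called, against 45.2% of all genes), and all 17 falls kept a negative sign. The 11 rises all stayed past the threshold. DESeq2 called 23 of the 65 (35.4%, against 38.1% of all genes it tested), 7 of them higher. With a block for the pair added it called 21 (32.3%, against 30.2% of all genes), 6 of them higher, so the smaller count went with a smaller count over all genes.

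**Figure D1:**
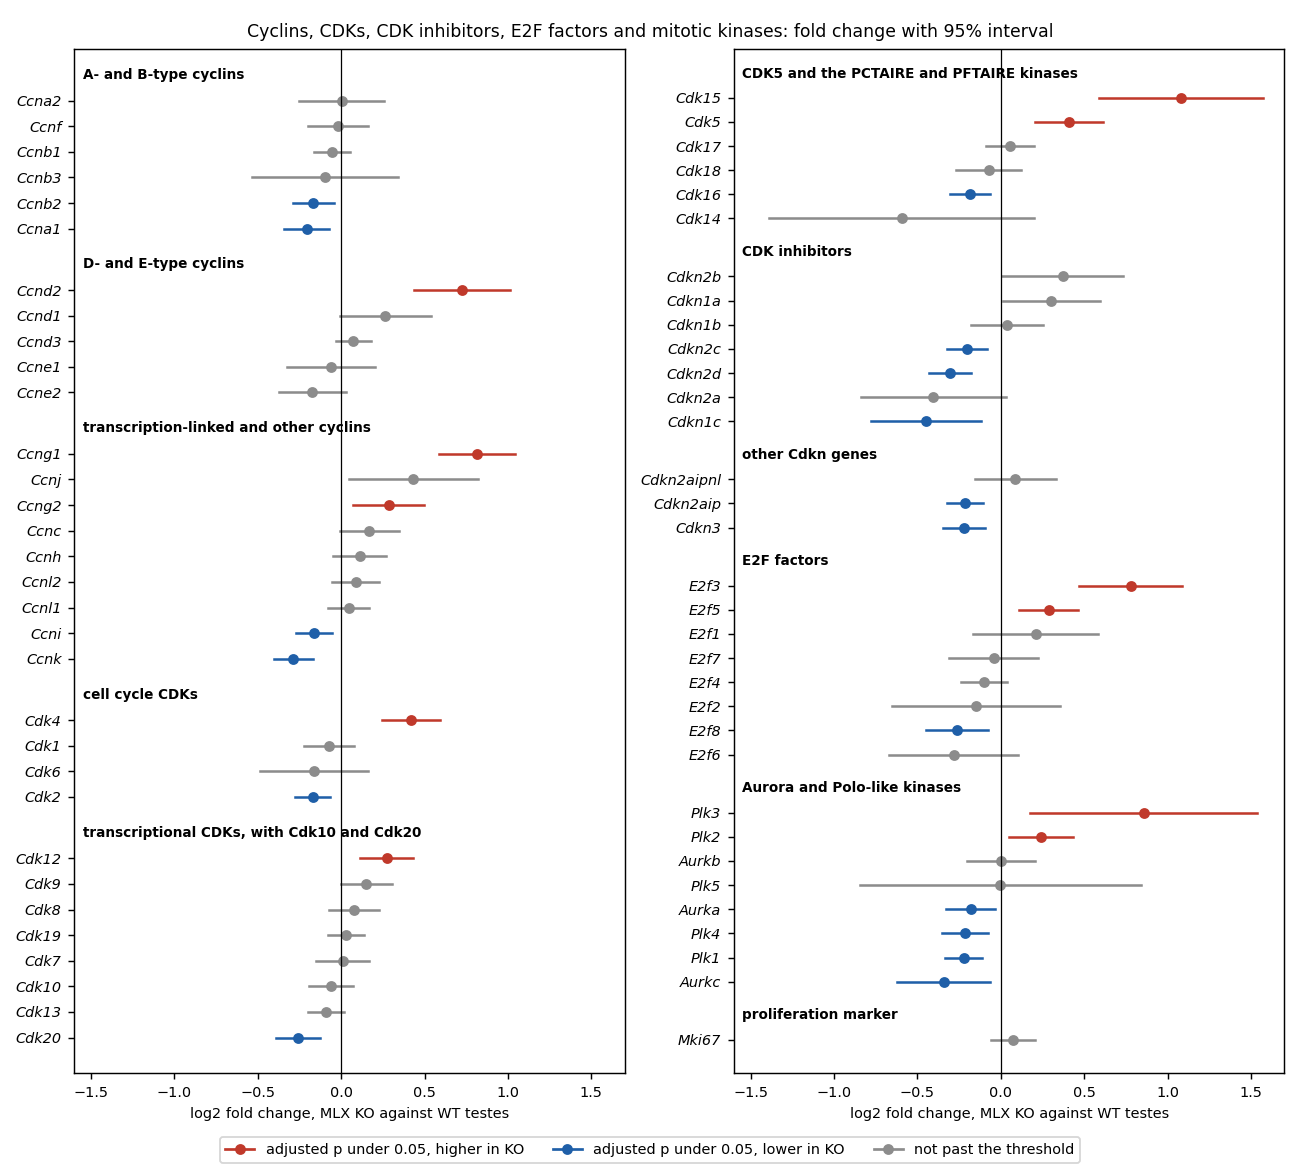
Log2 fold change of each of the 65 genes in MLX KO against WT testes (points) with its 95% confidence interval from edgeR (bars), by role; red, past the threshold and higher; blue, past the threshold and lower; grey, not past it. The 5 rises over 0.5 are *Cdk15*, *Plk3*, *Ccng1*, *E2f3* and *Ccnd2*, and the falls lie between -0.45 and -0.16.

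Promoters of 6 members are printed here because they hold matches to the motifs through which MLX, E2F factors or the DREAM complex are known to act, and because they stand for genes that rose, fell or did not pass the test. Each is the 250 bases before the RefSeq start site in GRCm38.p6 (the assembly of mm10), read 5′ to 3′ on the gene's strand. The windows are, for *Cdk4*, chr10:127063285-127063534 on the plus strand, for *E2f3*, chr13:29986064-29986313 on the minus strand, for *Ccnb2*, chr9:70421555-70421804 on the minus strand, for *E2f8*, chr7:48881597-48881846 on the minus strand, for *Cdk1*, chr10:69352913-69353162 on the minus strand, and for *Mki67*, chr7:135716380-135716629 on the minus strand. Capitals mark CACGTG (the E-box of MLX and MAX dimers), TTTGAA (the cell cycle homology region, or CHR) and TTGGCGC or TTCCCGC (E2F), on either strand.
*Cdk4*: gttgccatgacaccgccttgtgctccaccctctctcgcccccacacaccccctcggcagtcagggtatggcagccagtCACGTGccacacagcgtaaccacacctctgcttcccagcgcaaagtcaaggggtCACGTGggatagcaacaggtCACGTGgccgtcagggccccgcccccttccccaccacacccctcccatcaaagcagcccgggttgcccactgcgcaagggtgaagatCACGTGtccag
*E2f3*: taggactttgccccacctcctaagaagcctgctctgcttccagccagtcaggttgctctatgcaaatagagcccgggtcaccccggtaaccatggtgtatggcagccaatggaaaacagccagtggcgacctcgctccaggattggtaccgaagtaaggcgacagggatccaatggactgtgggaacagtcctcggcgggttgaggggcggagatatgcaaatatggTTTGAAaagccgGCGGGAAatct
*Ccnb2*: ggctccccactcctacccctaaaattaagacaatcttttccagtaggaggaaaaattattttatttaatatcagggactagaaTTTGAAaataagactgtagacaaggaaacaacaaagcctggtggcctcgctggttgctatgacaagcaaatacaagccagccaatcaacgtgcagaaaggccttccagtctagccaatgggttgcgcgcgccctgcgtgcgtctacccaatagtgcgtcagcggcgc
*E2f8*: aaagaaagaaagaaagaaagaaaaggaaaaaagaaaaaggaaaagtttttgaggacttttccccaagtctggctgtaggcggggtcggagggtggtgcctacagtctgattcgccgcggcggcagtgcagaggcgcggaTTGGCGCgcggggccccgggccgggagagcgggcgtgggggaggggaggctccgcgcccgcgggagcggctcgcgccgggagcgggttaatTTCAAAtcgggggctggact
*Cdk1*: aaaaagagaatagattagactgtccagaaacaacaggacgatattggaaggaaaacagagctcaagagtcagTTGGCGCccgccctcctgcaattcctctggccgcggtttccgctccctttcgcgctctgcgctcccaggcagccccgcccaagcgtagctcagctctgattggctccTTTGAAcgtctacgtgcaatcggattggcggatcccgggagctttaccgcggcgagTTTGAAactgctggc
*Mki67*: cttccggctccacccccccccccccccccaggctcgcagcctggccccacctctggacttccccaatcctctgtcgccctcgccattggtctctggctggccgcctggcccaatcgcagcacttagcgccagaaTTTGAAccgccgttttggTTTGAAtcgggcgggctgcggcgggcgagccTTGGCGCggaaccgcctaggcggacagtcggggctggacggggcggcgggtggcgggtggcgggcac
The *Cdk4* window holds 4 E-boxes, which begin at -172, -118, -98 and -11 from the start. *Ccnb2* has another CHR match just inside the transcript, from position 5, which is outside the printed window.

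RefSeq promoter windows, from 250 bases before to 50 bases after the start, were matched for 53 of the 65 genes. An E-box stood in the windows of 8 of the 53 (15.1%), against 11.1% of 11287 tested genes with a window and 7.15% of all 32851 windows. Of the genes with an E-box, *Cdk4* and *E2f3* rose, *Cdk20* and *Cdkn2c* fell, and *Cdk6*, *Cdk7*, *Cdk8* and *Cdk18* did not pass the threshold. The window of *Cdk20* holds 2 E-boxes. The E-box of *E2f3* lies in a window at another start site than the one printed. A CHR match was found for 13 of the 53 genes (24.5%), against 14.7% of tested genes and 17.9% of all windows. These were 7 of the 16 genes that fell and had a window, 1 of the 8 that rose and 5 of the 29 that did not pass. E2F matches were found for 12 of the 53 (22.6%), against 13.4% of tested genes and 6.81% of all windows. These were 4 of the 16, 1 of the 8 and 7 of the 29. How often these motifs stand in the windows of all genes that fell, rose or did not pass was not counted. The splits by call above therefore have no background. A match is a string of letters in this window and was not tested as a binding site.

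The A- and B-type cyclins carry cells through replication and division. Of the 6 genes *Ccna1* and *Ccnb2* fell, and *Ccna2*, *Ccnb1*, *Ccnb3* and *Ccnf* did not pass the threshold. *Ccna1*, the cyclin A of spermatocytes, had 140.0, 146 and 149.9 CPM in WT1, WT2 and WT3 and 137, 124 and 116 CPM in KO1, KO2 and KO3, an LFC of -0.21 (SE 0.06, edgeR adjusted p = 0.0181). The groups did not overlap, though KO1 lay close to WT1. *Ccna2*, the A-type cyclin of dividing cells generally, had 11.3, 12.6 and 9.98 CPM in WT and 11.7, 10.1 and 12.1 CPM in KO testes, with an LFC of 0.00 and a 95% interval from -0.25 to 0.26. The log2 ratio of *Ccna1* to *Ccna2* counts overlapped, at 3.54 to 3.91 in WT and 3.27 to 3.61 in KO libraries. *Ccnb1* had 89.2, 94.2 and 91.6 CPM in WT and 89.9, 90.3 and 84.7 CPM in KO testes (LFC -0.05, interval -0.16 to 0.05). *Ccnb2* fell from 155, 167 and 148 CPM to 145, 138 and 135 CPM, with no overlap (LFC -0.17, SE 0.06, edgeR adjusted p = 0.0296). Whether the changes of *Ccnb1* and *Ccnb2* differ was not tested. *Ccnb3*, a B-type cyclin of germ cells, was low and variable at 7.43, 6.30 and 4.45 CPM in WT and 6.65, 5.86 and 4.50 in KO testes. Its LFC of -0.10 has an interval from -0.54 to 0.34. *Ccnf*, which directs protein breakdown, had an LFC of -0.02.

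D- and E-type cyclins act in G1 and at entry into S phase. Of the 5 genes 1 rose, *Ccnd2*, the D-type cyclin known from spermatogonia and from the gonadal somatic cells. *Ccnd2* had 6.43, 4.90 and 6.60 CPM in WT and 9.59, 10.0 and 10.2 CPM in KO testes, an LFC of 0.72 (SE 0.13, edgeR adjusted p = 0.00113). Every KO library was above every WT library, and the 3 KO values lay close together. *Ccnd1*, the D-type cyclin of many proliferating tissues, had 8.86, 8.20 and 7.56 CPM in WT and 10.9, 10.2 and 8.52 CPM in KO testes (LFC 0.26, interval -0.01 to 0.54), with KO3 inside the WT range. *Ccnd3* was the most abundant of the D types, with 145, 141 and 139.7 CPM in WT and 147, 145 and 156 CPM in KO testes. Its groups did not overlap, but the LFC was 0.07 (interval -0.03 to 0.18) and did not pass the threshold. In KO testes the log2 ratio of *Ccnd2* to *Ccnd3* counts lay between -3.94 and -3.86, in WT between -4.85 and -4.40. That ratio is free of library scaling, and the groups did not overlap. Both E-type cyclins, the S phase partners of CDK2, stayed within overlapping ranges. *Ccne1* had 8.22, 7.25 and 6.82 CPM in WT and 7.07, 6.92 and 7.41 in KO testes (LFC -0.06, interval -0.32 to 0.20). *Ccne2* had 22.2, 22.4 and 20.2 CPM in WT and 18.8, 17.4 and 21.3 in KO testes (LFC -0.17, interval -0.37 to 0.03), and *Ccne2* shares 17.4% of its exon bases with *Ints8* on the other strand. *Ccnd1* shares 23.4% of its exon bases with *LTO1*, likewise on the other strand.

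The other cyclins act mostly in transcription or outside the division cycle. *Ccng1*, a target of p53, rose from 16.5, 18.6 and 15.6 CPM in WT to 26.9, 34.0 and 28.2 CPM in KO testes, an LFC of 0.81 (SE 0.10, edgeR adjusted p = 0.000139). The lowest KO library was well above the highest WT library, and *Ccng1* had the smallest adjusted p of the 65 genes. Its relative *Ccng2*, a cyclin of arrested cells, rose less, from 9.86, 11.6 and 11.4 CPM to 13.5, 13.3 and 13.2 CPM (LFC 0.29, SE 0.10, edgeR adjusted p = 0.0324), and it did not pass in DESeq2, either without (adjusted p = 0.161) or with the pair as a block (LFC 0.26, adjusted p = 0.308). *Ccnk*, the partner of CDK12 and CDK13, was the most abundant member. It had 619, 638 and 619.9 CPM in WT and 547, 488 and 504 CPM in KO testes, an LFC of -0.29 (SE 0.05, edgeR adjusted p = 0.00142), with no overlap. *Ccni*, whose product is linked to CDK5, fell by 0.16 on the log2 scale. The cyclins of transcriptional kinases and of splicing, *Ccnc* (LFC 0.17), *Ccnh* (0.11), *Ccnl1* (0.05) and *Ccnl2* (0.09), and *Ccnj* (0.43), did not pass the threshold.

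Of the 4 CDKs of the cell cycle, *Cdk4* rose, *Cdk2* fell, and *Cdk1* and *Cdk6* did not pass. *Cdk4*, the kinase partner of the D-type cyclins, had 22.5, 23.1 and 24.98 CPM in WT and 28.8, 33.7 and 31.8 CPM in KO testes, an LFC of 0.42 (SE 0.08, edgeR adjusted p = 0.00159). No KO library overlapped the WT range. A limit lies in the counting: *Cdk4* shares 641 of its 3249 exon bases with *Tspan31* on the opposite strand. *Tspan31* rose by an LFC of 1.07 (SE 0.10, edgeR adjusted p = 2.09e-05), from 10.3 ± 0.328 CPM in WT to 21.7 ± 2.29 CPM in KO testes (SD, n = 3). Whether the libraries keep the strand is not given in the sources used here, so reads of the shared bases could belong to either gene. *Cdk6*, the other D-cyclin kinase, was low, at 4.90, 5.34 and 6.37 CPM in WT and 4.90, 5.37 and 4.61 CPM in KO testes (LFC -0.16, interval -0.48 to 0.16). *Cdk1*, the kinase of M phase, had 34.1, 36.3 and 37.4 CPM in WT and 35.5, 34.7 and 32.1 CPM in KO testes, and the LFC of -0.07 has an interval from -0.22 to 0.07. *Cdk2*, which spermatocytes need for meiosis, fell from 71.9, 71.5 and 73.3 CPM to 65.4, 64.8 and 62.6 CPM (LFC -0.17, SE 0.05, edgeR adjusted p = 0.0131). Its replicates were tight and the groups did not overlap, but with DESeq2 and the pair as a block the LFC of -0.20 did not pass (adjusted p = 0.0769).

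**Figure D2:**
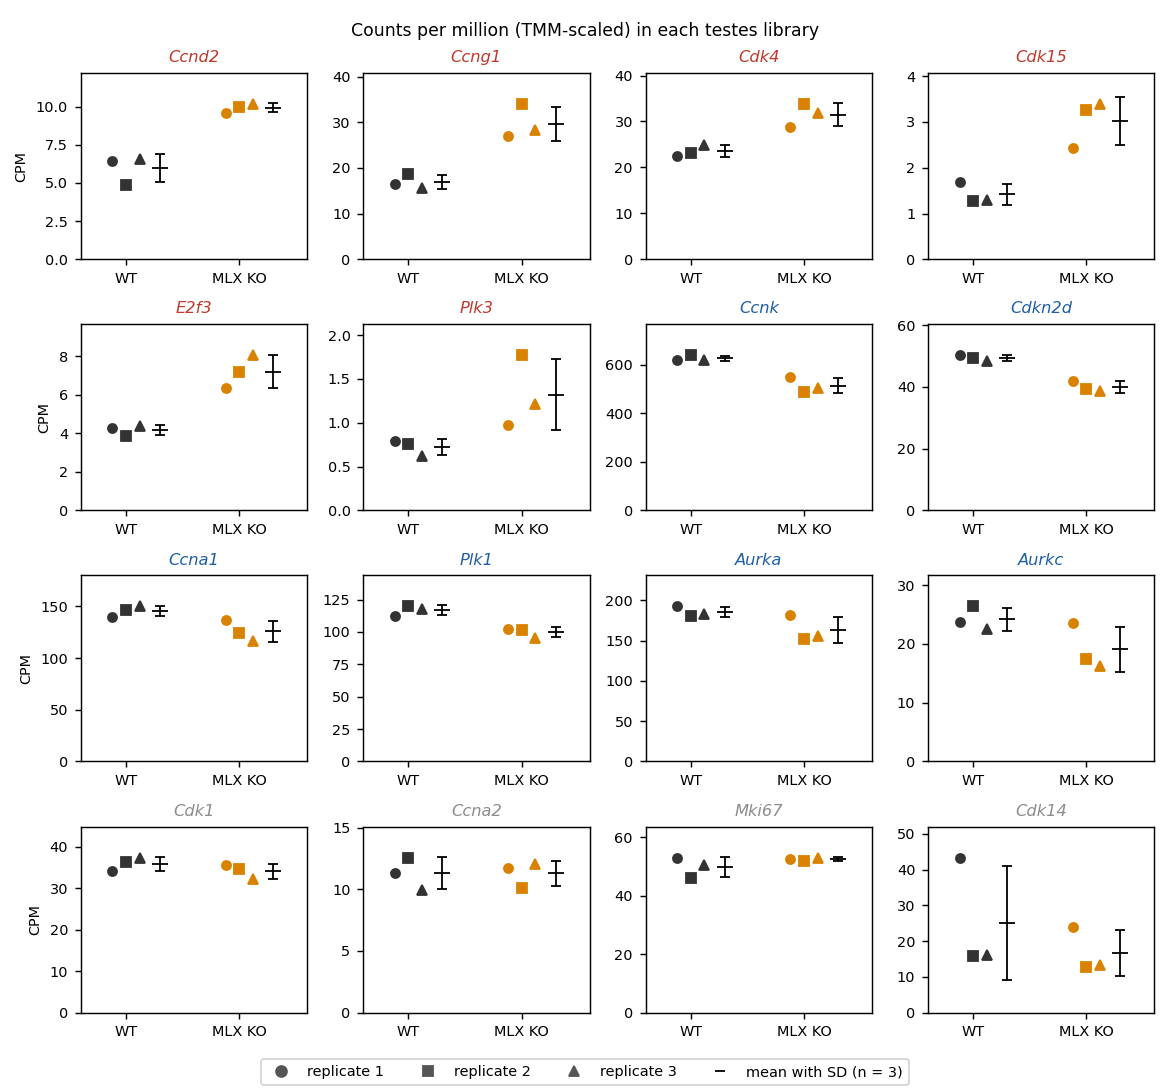
CPM of 16 genes in the 3 WT and 3 MLX KO libraries, with the replicate number given by the marker shape and the mean with SD (n = 3) beside the points; axes start at 0, and titles are red for rises, blue for falls and grey for genes not past the threshold. *Ccnd2*, *Ccng1*, *Cdk4*, *Cdk15*, *E2f3* and *Plk3* have no KO value inside the WT range, while *Cdk1*, *Ccna2* and *Mki67* overlap, and replicate 1 is high in both genotypes for *Cdk14*.

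Transcriptional CDKs act on RNA polymerase II and the Mediator complex. They are grouped here with *Cdk10* and *Cdk20*, which are not known for that role, and of these 8 genes *Cdk12* rose and *Cdk20* fell. *Cdk12*, the partner of cyclin K, rose by an LFC of 0.27 (SE 0.07, edgeR adjusted p = 0.00969), from 50.3 ± 0.199 to 60.8 ± 6.30 CPM (SD, n = 3), opposite in sign to that of *Ccnk*. It passed in DESeq2 (adjusted p = 0.0187) but not with the pair as a block there (adjusted p = 0.0609). *Cdk12* lies on chromosome 11, the chromosome of *Mlx*, 2809 kb from it, and the part of 129S4 sequence linked to the targeted allele was not tested. *Cdk20*, a kinase linked to cilia, fell by 0.26 on the log2 scale. *Cdk13* (LFC -0.09), the sister kinase of CDK12, *Cdk7* (0.01), *Cdk8* (0.08), *Cdk9* (0.15), *Cdk10* (-0.06) and *Cdk19* (0.03) did not pass.

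In the group of CDK5 and the PCTAIRE and PFTAIRE kinases, 2 genes rose, 1 fell and 3 did not pass. *Cdk15*, a PFTAIRE kinase, was low in both groups, with 32, 20 and 23 counts in WT and 47, 59 and 64 counts in KO libraries. In CPM these are 1.69, 1.27 and 1.30 against 2.42, 3.26 and 3.39, an LFC of 1.08 (SE 0.22, edgeR adjusted p = 0.00263) and the largest rise of the 65 genes. *Cdk5*, best known from neurons, rose from 21.4 ± 1.99 to 28.4 ± 2.60 CPM (SD, n = 3 each; LFC 0.41, SE 0.09, edgeR adjusted p = 0.00423), without overlap. *Cdk16*, a PCTAIRE kinase that spermatogenesis needs, fell from 160.4 ± 8.67 to 141 ± 5.45 CPM (LFC -0.18, edgeR adjusted p = 0.0172). *Cdk17* (LFC 0.06) and *Cdk18* (-0.07) did not pass.
*Cdk14*, the other PFTAIRE kinase, stood apart by replicate number. It had 823 counts in WT1 and 466 in KO1, but 248 and 284 in WT2 and WT3 and 230 and 252 in KO2 and KO3. The LFC of -0.59 (SE 0.36, edgeR adjusted p = 0.202) did not pass, with the pair as a block it did (LFC -0.52, edgeR adjusted p = 0.00148), and without WT1 it was 0.07. *Cdk14* was lower in KO than in WT in all 3 pairs.

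CDK inhibitors fall into the CIP/KIP proteins of the Cdkn1 genes, which bind several cyclin-CDK pairs, and the INK4 proteins of the Cdkn2 genes, which bind CDK4 and CDK6. Of the 7 genes 3 fell, *Cdkn1c*, *Cdkn2c* and *Cdkn2d*, and none rose. *Cdkn1a*, which encodes p21 and is a target of p53, had 8.75, 9.73 and 10.7 CPM in WT and 10.5, 14.3 and 11.2 CPM in KO testes (LFC 0.30, interval 0.01 to 0.59, edgeR adjusted p = 0.0842). KO1 lay inside the WT range, and without KO1 the gene passed the threshold. *Cdkn1b*, which encodes p27, had 10.8, 10.8 and 10.4 CPM in WT and 10.0, 11.6 and 11.2 CPM in KO testes (LFC 0.04, interval -0.18 to 0.26). *Cdkn1c*, the imprinted p57 gene, had 10.2, 12.2 and 15.0 CPM in WT and 7.79, 9.35 and 10.3 CPM in KO testes, an LFC of -0.45 (SE 0.15, edgeR adjusted p = 0.0302). It was lower in all 3 pairs, but KO3 reached the level of WT1, and 30.7% of its exon bases are shared with *Gm44732* on the opposite strand.

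The INK4 genes differed in level. *Cdkn2c*, which encodes p18 and is abundant in germ cells, fell from 51.5, 50.4 and 49.6 CPM to 45.5, 42.7 and 43.5 CPM (LFC -0.20, SE 0.05, edgeR adjusted p = 0.0107), and did not pass with DESeq2 and the pair as a block (adjusted p = 0.0657). *Cdkn2d*, which encodes p19 and is known from meiotic cells, fell from 50.2, 49.5 and 48.3 CPM to 42.0, 39.4 and 38.5 CPM, an LFC of -0.30 (SE 0.06, edgeR adjusted p = 0.00161). Neither gene's groups overlapped. *Cdkn2a*, whose row joins the INK4A and ARF transcripts, gave 57, 63 and 65 reads in the WT libraries, against 52, 39 and 60 in the KO libraries (3.01, 4.01 and 3.67 CPM against 2.68, 2.16 and 3.18 CPM). The LFC of -0.40 has an interval from -0.84 to 0.03. *Cdkn2b*, next to *Cdkn2a* on chromosome 4, had an LFC of 0.37 (interval 0.01 to 0.73), which did not pass the threshold. Of the Cdkn genes that encode no CDK inhibitor of these families, *Cdkn3*, a phosphatase gene, fell by 0.22 and *Cdkn2aip*, a regulator of p53 and ARF, fell by 0.21 on the log2 scale, while *Cdkn2aipnl* had an LFC of 0.09.

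E2F factors switch on or hold back the genes of G1 and S phase. *E2f3*, an activator, had 4.27, 3.88 and 4.40 CPM in WT and 6.34, 7.19 and 8.05 CPM in KO testes, an LFC of 0.78 (SE 0.14, edgeR adjusted p = 0.00118), with every KO value above every WT value. *E2f5*, a repressor type, rose less (LFC 0.29, SE 0.08, edgeR adjusted p = 0.0129), and did not pass in DESeq2, without (adjusted p = 0.0641) or with the pair as a block (adjusted p = 0.174). *E2f8*, an atypical repressor whose promoter is printed above, fell by 0.26 on the log2 scale (edgeR adjusted p = 0.0266), which DESeq2 did not call without (adjusted p = 0.0585) or with the block (adjusted p = 0.166). *E2f1*, the activator best known for both proliferation and cell death, had 5.32, 4.83 and 5.98 CPM in WT and 5.88, 7.74 and 5.08 CPM in KO testes (LFC 0.21, interval -0.17 to 0.58). KO2 was the only KO library outside the WT range. *E2f2* (LFC -0.15), *E2f4* (-0.10), *E2f6* (-0.28) and *E2f7* (-0.04) did not pass. *E2f6*, known for silencing germ cell genes in other tissues, was highest in WT1 at 207 counts and lowest in KO1 at 109.

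Aurora and Polo-like kinases build the spindle and drive division. Of the 8 genes 4 fell and 2 rose. *Aurka*, the spindle pole kinase, had 192, 181 and 182 CPM in WT and 182, 152 and 156 CPM in KO testes (LFC -0.18, SE 0.07, edgeR adjusted p = 0.0459). *Aurkc*, the meiotic member, had 23.7, 26.4 and 22.6 CPM in WT and 23.5, 17.4 and 16.3 CPM in KO testes (LFC -0.34, SE 0.13, edgeR adjusted p = 0.0464). For both, KO1 lay inside the WT range, and both calls were lost when any 1 library other than KO1 was left out. *Aurkb*, the chromosomal passenger kinase of mitosis, had 13.3, 13.2 and 12.5 CPM in WT and 13.8, 13.2 and 11.96 CPM in KO testes, an LFC of 0.00 with an interval from -0.20 to 0.20. The log2 ratio of *Aurkc* to *Aurkb* counts was 0.83 to 1.00 in WT and 0.39 to 0.77 in KO libraries, without overlap. Such ratios were taken for other pairs of members too. The groups overlapped for *Ccna1* to *Ccna2* and for *Plk1* to *Plk4*. They did not overlap for *Ccnb1* to *Ccnb2*, *Ccnd2* to *Ccnd1*, *Ccnd2* to *Ccnd3*, *Cdk4* to *Cdk6* and *Cdkn2d* to *Cdkn2c*. For *Ccnb1* to *Ccnb2* the groups nearly met (highest WT value -0.691, lowest KO value -0.688). The same held for *Ccnd2* to *Ccnd1* (-0.196 in WT and -0.182 in KO). How often ratios of other gene pairs do not overlap was not counted.
*Plk1*, the main mitotic Polo kinase, fell from 112, 119.7 and 118 CPM to 103, 102 and 95.4 CPM (LFC -0.22, SE 0.05, edgeR adjusted p = 0.00426), with no overlap. *Plk4*, which starts centriole duplication, fell by 0.22 on the log2 scale. The rises were in stress-linked relatives at low levels. *Plk3* had 15, 12 and 11 counts in WT and 19, 32 and 23 counts in KO libraries (0.791, 0.763 and 0.620 CPM against 0.98, 1.77 and 1.22 CPM), an LFC of 0.86 (SE 0.31, edgeR adjusted p = 0.0417). *Plk2* had an LFC of 0.24 (SE 0.09, edgeR adjusted p = 0.0406). With the pair as a block *Plk2* was at the threshold in edgeR (adjusted p = 0.05002) and neither gene passed in DESeq2, with the block (adjusted p = 0.366 for *Plk2* and 0.341 for *Plk3*) or without it (0.210 and 0.174). *Plk5*, a Polo gene without a complete kinase domain, had few reads, with 12 to 17 counts in WT and 7 to 21 in KO libraries.

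*Mki67*, which encodes the Ki-67 protein of cycling cells, had 52.9, 46.2 and 50.7 CPM in WT and 52.6, 51.9 and 53.1 CPM in KO testes. The LFC of 0.07 has an interval from -0.06 to 0.20, and with library size alone the LFC was 0.21 (edgeR adjusted p = 0.0235).

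The genes that rose and those that fell differed in level. The median WT level was 13.4 CPM for the 11 that rose and 119.5 CPM for the 17 that fell, and over all genes the same held, at 9.55 CPM for genes that rose and 121 CPM for genes that fell. Per kb of exon, the scale on which levels of different genes can be set side by side, *Ccnk* was highest in WT testes at 206 ± 3.59 CPM per kb, before *Ccni* at 122 ± 3.43, *Ccnb2* at 102 ± 6.16, *Ccna1* at 79.2 ± 2.74 and *Aurka* at 73.2 ± 2.46 (SD, n = 3). These 5 kept that order in KO testes, where *Ccna1* at 68.6 ± 5.70 and *Aurka* at 64.6 ± 6.39 CPM per kb lay within each other's spread. Among the CDKs, *Cdk16* led at 36.6 ± 1.98 CPM per kb in WT testes. *Cdk4* passed from 7.24 ± 0.398 to 9.68 ± 0.760 CPM per kb and *Cdk2* from 11.6 ± 0.150 to 10.3 ± 0.236, so that the levels of both came close in KO testes. At the low end were *Plk3*, at 0.286 CPM per kb in WT and 0.523 in KO testes, and *Plk5*, at 0.312 and 0.314. Lengths are of all annotated exons of a gene joined, so the scale is approximate where the testis uses a shorter transcript.

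**Figure D3:**
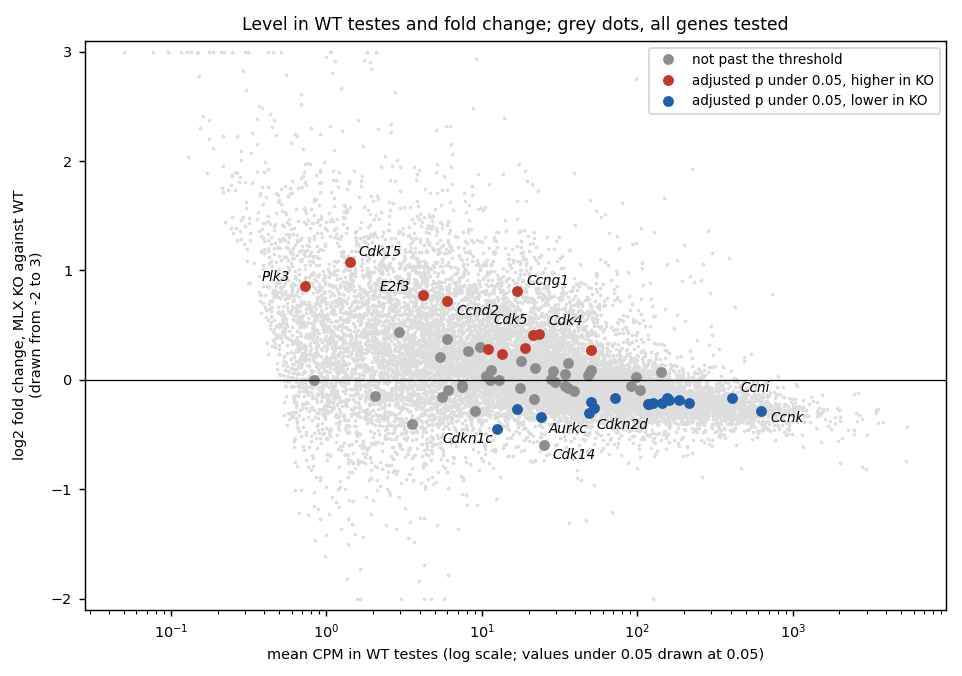
Log2 fold change in MLX KO against WT testes by mean WT level (CPM, log axis) for the 65 genes (large points, coloured by call) and all genes tested (grey dots). Rises sit at lower levels (median 13.4 CPM) and falls at higher levels (median 119.5 CPM), as for all genes.

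Among KO libraries, KO1 lay nearest the WT values in most called genes. Of the 17 genes that fell, the highest KO value was that of KO1 in 14, and of the 11 that rose, the lowest KO value was that of KO1 in 8. How often this held among all called genes was not counted. KO1 stood apart over the whole table as well. Its counts differed from those of KO2 and KO3 by 7.91 and 7.92 times the sampling variance, while KO2 and KO3 differed by 2.66 times. In KO1 the summed elongating spermatid markers were also highest of the KO libraries (15933 CPM, against 13976 and 13045) and the Leydig cell markers lowest (1859 CPM, against 2446 and 2264). Without KO1, 29 of the 65 genes were called (44.6%, against 50% of all genes). The number was 15 without KO2 (23.1%, against 34.7%) and 17 without KO3 (26.2%, against 35.2%), with 7 and 8 falls, so the share called moved the same way over all genes.

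Other genes of the same pathways, taken from lists by function and outside the symbol rule, were set beside these. Of 61 tested, 7 rose and 19 fell (42.6% called, against 45.4% of all genes), with a median LFC of -0.11. With DESeq2 and the pair as a block 3 rose and 12 fell (24.6% called, against 30.2% of all genes). With library size alone 13 rose and 5 fell (29.5% called, against 45.2% of all genes). Of 15 partners and phosphatases of cyclin-CDK pairs, 3 rose and 5 fell. *Cdk2ap1*, a CDK2-binding protein gene, rose by an LFC of 0.42 and *Ccnt1*, the cyclin of CDK9, by 0.32, while *Ccno*, a cyclin of multiciliated cells, had an LFC of -0.63 and *Cdc25a*, the phosphatase that activates CDK2, one of -0.23. Of 10 pocket protein, DP and G2/M regulator genes 2 rose and 1 fell. *Rb1*, the retinoblastoma gene on which cyclin D kinases act, rose from 45.0 ± 6.14 to 63.1 ± 3.46 CPM (SD, n = 3 each; LFC 0.49, SE 0.09, edgeR adjusted p = 0.00103), *Tfdp2*, an E2F partner, rose by an LFC of 0.38, and *Foxm1*, an activator of G2/M genes, fell from 253 ± 2.36 to 206 ± 8.52 CPM (LFC -0.30, SE 0.05, edgeR adjusted p = 0.000551).
Of 15 genes of the anaphase-promoting complex and the spindle checkpoint, 5 fell and 1 rose. *Bub1b*, a checkpoint kinase-like gene, had an LFC of -0.32, *Fzr1*, a co-activator of the complex, one of -0.28, and *Cdc16*, a subunit, one of 0.30. Of 9 tested partners of Aurora and Polo kinases 7 fell and none rose, with the largest falls in *Kif20a*, a kinesin of cytokinesis (LFC -0.28), and *Bora*, which activates Aurora A (-0.27). The median of this list was -0.19. Of 12 replication licensing genes *Mcm2* rose (LFC 0.26) and *Mcm7* fell (-0.21), both subunits of the replicative helicase.

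The calls that held in each of the 14 alternative settings were 8 of the 28: the rises of *Ccnd2*, *Ccng1*, *Cdk4*, *Cdk5*, *Cdk15* and *E2f3*, and the falls of *Ccnk* and *Cdkn2d*. None of these settings touches the reads that *Cdk4* may share with *Tspan31*. In GRCm38, whose coordinates are those of mm10, the positions are *Ccnd2* at chr6:127125162-127152193 (minus strand), *Ccng1* at chr11:40748552-40755311 (minus strand), *Cdk4* at chr10:127063534-127067920 (plus strand), *Cdk5* at chr5:24418241-24423530 (minus strand), *Cdk15* at chr1:59256906-59352993 (plus strand), *E2f3* at chr13:29906575-29986063 (minus strand), *Ccnk* at chr12:108179579-108203359 (plus strand) and *Cdkn2d* at chr9:21288410-21291407 (minus strand). The remaining 20 lost significance in at least 1 setting, and none changed sign.

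**Figure D4:**
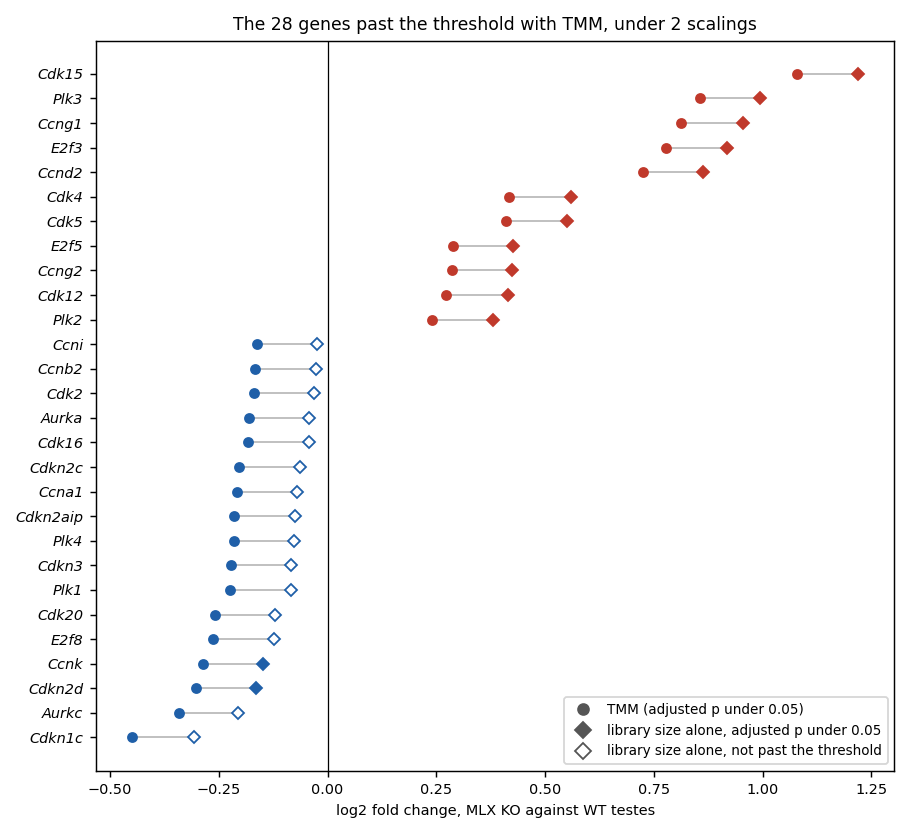
Log2 fold change of the 28 called genes with TMM scaling (circles) and with library size alone (diamonds; filled, adjusted p under 0.05; open, not past). Each gene moves up with library size alone; the 11 rises stay past the threshold, and of the 17 falls only *Ccnk* and *Cdkn2d* do.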

How the data were processed

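Whole testes RNA of 3 WT and 3 MLX KO mice was sequenced with paired-end reads. Per the labels, reads were converted with bcl2fastq 1.8.4 and aligned with TopHat to mm10. The authors deposited whole-number counts of reads per gene symbol, without normalization. The counting tool, gene annotation and strand setting are not given in the sources used here. The deposited table also holds the authors' own comparison (a mean signal, a log2 fold change and its standard error, a test score, and raw and adjusted p-values), which was not used.

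Of 17933 rows, 2 were repeats, which left 17931 symbols. edgeR 4.0.16 in R 4.3.3 was used with its low-count filter (minimum count 10), TMM factors, a quasi-likelihood test of genotype with no other term, and p-values adjusted by Benjamini-Hochberg over 14640 genes. All tests were two-sided, and p-values reflect the spread between 3 animals per genotype. DESeq2 1.42.0, other scalings and filters, the pair as a block, and each library left out in turn were alternatives. SE is the absolute LFC over the square root of the F statistic, and 95% intervals use the test's degrees of freedom. The code was tested on simulated data. No libraries were duplicates: within a genotype counts differed by 2.66 to 7.92 times the sampling variance (chi-square per degree of freedom). Depth was 16674678 to 19742726 counts, and no member fell to the detection floor of 3 counts in all libraries of a group.

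The numbers 1 to 3 were taken to pair littermates because the titles call the libraries paired replicates and the study used littermates. Deviations from the group means correlated at 0.145, 0.0363 and 0.121 over 14640 genes for same-numbered libraries, and at -0.123 to 0.0330 for others.

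Values in every library are given for each member past the threshold with an absolute LFC of at least 0.5 and for the main cyclins, CDKs, inhibitors and mitotic kinases. They are also given for *Ccng2* and *Ccnk*, which fall outside that rule. Of the pathway lists, the 2 largest changes in each direction are named, and *Cdk14*, *E2f6*, *Plk5* and *Tspan31* were singled out after their values were seen. The members and lists were chosen with earlier results of these data known. Exon lengths and overlaps come from GENCODE M21 (GRCm38), as the union of exons, and promoters from RefSeq (GRCm38.p6). All 65 symbols had a position, and 27 share exon bases with another gene. In 9 the share is over 10%: *Ccna1*, *Ccna2*, *Ccnd1*, *Ccne2*, *Cdk4*, *Cdk10*, *Cdkn1c*, *Cdkn2aip* and *E2f8*. Reads of shared bases could belong to either gene. The marker gene *Nanos3* had too few counts to be tested, and *Sgol2a* was not analysed here.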

Additional observations from a re-analysis of the deposited data

How the results depend on the processing

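Direction and side of the threshold held in 759 of 908 member values recomputed under 14 settings, 85 calls were lost, 21 gained and 43 signs reversed. No reversal was in a called gene. Among the 65 genes, the number higher was 7 with DESeq2, 6 with DESeq2 and the replicate block, and 24 with library size alone, where the number lower was 2. Leaving out 1 library at a time gave 15 to 29 called members and 7 to 16 lower ones, the lowest of each without KO2. Pathway genes numbered 15 with DESeq2 and the block (3 higher, 12 lower, 24.6% called, against 30.2% of all genes). With library size alone 13 were higher and 5 lower (29.5% called, against 45.2% of all genes). Without 1 library they numbered 15 to 29 in all and 10 to 22 lower. The 15 were called without KO2 (24.6%, against 34.7% of all genes) and the 29 without KO1 (47.5%, against 50%). Over all genes 2193 were higher with DESeq2 and the block, and 1268 lower with library size alone. Cell type markers called lower numbered 17 with library size alone and 29 with TMM. With the replicate block in edgeR, *Plk2* lost and *Cdk14* gained its call. In DESeq2 *Ccng2*, *E2f5*, *E2f8*, *Plk2* and *Plk3* lost theirs already without the block, and adding it cost *Cdk2*, *Cdk12* and *Cdkn2c* theirs and gave *Cdk14* its call. The block changed no other call of these genes. The cause was not tested.

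With library size alone the LFC was 0.14 for *Aurkb*, 0.086 for *Ccnb1*, 0.039 for *Ccnb3*, 0.077 for *Ccne1*, 0.12 for *Ccnf*, 0.065 for *Cdk1*, 0.079 for *Cdk10*, 0.048 for *Cdk13*, 0.066 for *Cdk18*, 0.036 for *E2f4*, 0.095 for *E2f7* and 0.14 for *Plk5*. Upper-quartile scaling gave 0.0056 for *Aurkb* and 0.0025 for *Plk5*, and a filter of 1 CPM in 3 libraries 0.0036 for *Aurkb*. DESeq2 gave -0.028 for *Ccna2* and -0.021 for *Cdk7*, its size factors in edgeR -0.022 for *Ccna2* and -0.017 for *Cdk7*, and DESeq2 with the block -0.027 for *Ccna2*, -0.0195 for *Cdk7* and -0.00067 for *Cdk19*. Leaving out 1 library at a time, the LFC ranged from -0.043 to 0.061 for *Aurkb*, -0.081 to 0.083 for *Ccna2*, -0.28 to 0.083 for *Ccnb3*, -0.12 to 0.019 for *Ccne1*, -0.066 to 0.067 for *Ccnf*, -0.96 to 0.073 for *Cdk14*, -0.027 to 0.067 for *Cdk7*, -0.0015 to 0.10 for *Cdkn1b*, -0.27 to 0.027 for *E2f2*, -0.12 to 0.024 for *E2f7* and -0.26 to 0.37 for *Plk5*. Genes with few counts, such as *Plk3*, *Plk5* and *E2f2*, have wide intervals at this depth.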
